A study of Mus musculus with 4 samples.

Results

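The genes described here are 9 kallikrein-related peptidases, Klk5, Klk6, Klk7, Klk8, Klk10, Klk11, Klk12, Klk13 and Klk14, and Spink5, which encodes a serine protease inhibitor. They were taken from the deposited table by their symbols. All 10 symbols were found, among 54446 genes with a mouse Ensembl identifier. RNA sequencing had been done on 4 libraries of epithelial cells derived from the tongue of C57BL/6 mice and grown in RPMI-1640 medium with serum. The libraries Otub2 KO 3 and Otub2 KO 4 are labelled as lacking Otub2 throughout the body, and the libraries WT 1 and WT 2 as wild type. Otub2 encodes an enzyme that removes ubiquitin from proteins. The labels give neither the age nor the sex of the mice, nor the part of Otub2 that was deleted. They do not state that each library had its own animal or culture, and the p-values rest on the spread between libraries only, which may be technical.

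Kallikrein-related peptidases are secreted serine proteases that are made as inactive precursors. In the upper layers of skin and oral epithelium, KLK5, KLK7 and KLK14 cut the corneodesmosomes that hold flattened keratinocytes together, and so allow surface cells to be shed. KLK5 can activate itself and other kallikreins, including KLK7 and KLK14. The inhibitor encoded by Spink5 is processed into fragments with Kazal domains that bind these proteases, and loss of SPINK5 in humans causes Netherton syndrome, in which the surface layer detaches too early.

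The number 3 and 4 libraries have count columns headed OE rather than KO, and they were assigned by their numbers and called as their titles call them. Gene counts summed to 22719550 and 18911259 in the Otub2 KO libraries and to 12185345 and 11548186 in the WT libraries. Otub2 itself was at 19 and 24 CPM (TMM-scaled counts per 1000000) in the Otub2 KO libraries and at 27.5 and 26.9 CPM in the WT libraries, which did not pass the test (log2 fold change -0.34, SE 0.302, edgeR adjusted p = 0.485). A count over the whole gene does not check a deletion of part of it. The keratins Krt5 and Krt14, which mark basal cells of stratified epithelium, were abundant in every library, at 3712 and 8223 CPM (Krt5) and 11059 and 15974 CPM (Krt14) in the Otub2 KO libraries and at 5025 and 4839.8 CPM and 25325 and 21568 CPM in the WT libraries. The Otub2 KO 3 library stood apart. In it 23 genes of salivary secretory and duct cells held 30.2% of gene counts, against 0.0254% in Otub2 KO 4 and 0.0115% and 0.0188% in the WT libraries. Mucl2 alone had 5462635 of that list's 6850674 counts in Otub2 KO 3. Others of the list were not high there, such as Muc19 (53 counts, against 51 and 32 in the WT libraries) and Odam (16, against 454 and 899). The 16 genes of cardiac and skeletal muscle held 1.22%, against 0.0106% in Otub2 KO 4 and 0.0092% and 0.00931% in the WT libraries. Cardiac Myh6 held the most, at 134463 and 9 counts in the Otub2 KO libraries and 53 and 60 in the WT libraries. Skeletal genes were divided, with Myh1 at 20 and 414 counts (WT 88 and 65) and Acta1 at 1855 and 381 (WT 23 and 13). Each result below is therefore given with the values of the Otub2 KO libraries apart.

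The 9 kallikrein genes lie next to each other on the plus strand of mouse chromosome 7 (GRCm38), from the start of Klk14 at 43690418 to the end of Klk5 at 43851181, in the order Klk14, Klk13, Klk12, Klk11, Klk10, Klk8, Klk7, Klk6 and Klk5, with Klk9 between Klk10 and Klk8. All 10 genes are protein coding. An antisense transcript of the minus strand, 2310002F09Rik, overlaps the Klk14 end and the genes from Klk13 to Klk8. It had 84 and 87 counts in the Otub2 KO libraries and 76 and 60 counts in the WT libraries. The strand setting of the counting is not given in the sources used here, so reads of this transcript and of the overlapped kallikreins could not be told apart.

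The bases upstream of the annotated start sites of 4 of these genes are shown, because Klk13 and Klk8 lay on opposite sides of the WT libraries, Klk10 was the most abundant of the 9 kallikreins and Klk12 holds the motif match nearest to a start site among them. They are the 250 bases before the start site, 5′ to 3′, from RefSeq (GRCm38.p6), and capitals mark the match to a motif.
Klk13 (chr7:43712317-43712566, plus strand): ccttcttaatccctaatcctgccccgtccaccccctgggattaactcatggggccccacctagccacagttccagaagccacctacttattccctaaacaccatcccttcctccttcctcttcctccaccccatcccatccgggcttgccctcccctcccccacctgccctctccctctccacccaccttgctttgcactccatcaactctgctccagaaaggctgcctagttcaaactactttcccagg
Klk12 (chr7:43768850-43769099, plus strand): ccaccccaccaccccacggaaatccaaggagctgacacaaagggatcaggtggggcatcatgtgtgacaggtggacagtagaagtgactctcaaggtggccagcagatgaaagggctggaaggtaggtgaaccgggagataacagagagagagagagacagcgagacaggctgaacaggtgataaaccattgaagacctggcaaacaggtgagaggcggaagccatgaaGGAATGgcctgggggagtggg
Klk10 (chr7:43780804-43781053, plus strand): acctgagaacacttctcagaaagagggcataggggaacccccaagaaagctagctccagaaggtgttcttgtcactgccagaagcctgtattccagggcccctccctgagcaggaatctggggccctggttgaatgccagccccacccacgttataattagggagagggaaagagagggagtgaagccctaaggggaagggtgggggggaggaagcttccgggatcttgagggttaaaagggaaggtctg
Klk8 (chr7:43797327-43797576, plus strand): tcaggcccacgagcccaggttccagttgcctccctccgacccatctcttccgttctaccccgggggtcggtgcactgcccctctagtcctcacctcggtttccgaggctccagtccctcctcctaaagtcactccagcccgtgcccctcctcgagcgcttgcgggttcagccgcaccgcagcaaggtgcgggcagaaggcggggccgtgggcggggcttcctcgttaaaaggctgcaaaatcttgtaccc
Promoter windows (250 bases before to 50 after a start site) were found for 9 kallikreins, in 11 windows, and were searched on both strands for TATAAA, the core promoter element of TBP, for TGANTCA, a motif of AP-1 factors, for GGAATG, a motif of TEAD factors, and for AACCGGTT, a motif of GRHL factors. The match GGAATG began 21 bases before the RefSeq start site of Klk12 and 147 bases before a RefSeq start site of Klk6. The GENCODE starts of these genes, at 43768897 for Klk12 and 43824499 for Klk6, lie upstream of both matches. The other motifs had no match in the 11 windows. Among 32851 promoter windows of the same length, 13.6% held TATAAA, 7.81% held TGANTCA, 14.7% held GGAATG and 0.146% held AACCGGTT. The Klk8 sequence held 18 CpG dinucleotides at a GC content of 65.2%, against medians of 6 CpG dinucleotides and 52.4% over the same upstream stretch of all 32851 windows. The Klk13, Klk12 and Klk10 sequences held 2, 4 and 2 CpG dinucleotides. A letter match is no evidence of binding.

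The inhibitor was lower in both Otub2 KO libraries. Spink5 (ENSMUSG00000055561, chromosome 18, 43963235 to 44022501, plus strand) was at 2263 and 1617 CPM in the Otub2 KO libraries and at 4919 and 4759.7 CPM in the WT libraries. Both Otub2 KO libraries lay below both WT libraries, 2.14-fold (Otub2 KO 3) and 2.99-fold (Otub2 KO 4) under the WT mean. The counts behind these levels were 32403 and 33409 against 70297 and 64986. The edgeR quasi-likelihood test, with 2 libraries a group, gave a log2 fold change of -1.32 with an SE of 0.43 (95% interval -2.41 to -0.23), which did not pass the threshold of 0.05 after Benjamini-Hochberg adjustment over all genes tested (adjusted p = 0.176). Spink5 was among the most abundant transcripts per length, ranking 85th and 98th of 54446 genes by deposited FPKM in the Otub2 KO libraries and 46th and 41st in the WT libraries.

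Of Klk5, Klk7 and Klk14, the kallikreins this inhibitor is best known to bind, Klk5 was lower in both Otub2 KO libraries. Klk7 and Klk14 were lower in Otub2 KO 3 alone. Klk5 (ENSMUSG00000074155), the tryptic enzyme at the head of the activation cascade, was at 0.628 and 2.37 CPM in the Otub2 KO libraries and at 6.79 and 5.13 CPM in the WT libraries (log2 fold change -1.97, SE 0.741, adjusted p = 0.196). Both Otub2 KO libraries lay below both WT libraries, with 9 and 49 counts against 97 and 70. The count of 9 in Otub2 KO 3 has an exact 95% Poisson interval of 4.12 to 17.1, which covers counting error only, as do the other count intervals given. Klk5 was the least abundant of the 9 kallikreins in Otub2 KO 3, also by deposited FPKM, at 0.293 and 1.92 in the Otub2 KO libraries and at 5.79 and 4.41 in the WT libraries.

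Klk7 (ENSMUSG00000030713), the chymotryptic enzyme of the cornified layer, was at 12.2 and 40.4 CPM in the Otub2 KO libraries and at 49.3 and 20.6 CPM in the WT libraries (log2 fold change -0.41, SE 0.701, adjusted p = 0.718). Otub2 KO 3 lay below both WT libraries and Otub2 KO 4 between them, so that the spread of the WT libraries covers it. Klk14 (ENSMUSG00000044737), a tryptic enzyme, was at 90.6 and 275 CPM in the Otub2 KO libraries and at 379 and 235 CPM in the WT libraries (log2 fold change -0.75, SE 0.59, adjusted p = 0.438). It showed the same order, with Otub2 KO 3 lowest and Otub2 KO 4 between the WT libraries.

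Among the other kallikreins, Klk8 gave nearly the same TMM-scaled level in both Otub2 KO libraries. That agreement depends on the scaling, with TMM factors of 0.65 for Otub2 KO 3 and 1.1 for Otub2 KO 4. Its deposited FPKM was 43 and 76 in the Otub2 KO libraries and 272 and 157 in the WT libraries. Klk8 (ENSMUSG00000064023), a tryptic protease also known as neuropsin, was at 106 and 108 CPM in the Otub2 KO libraries and at 368 and 211 CPM in the WT libraries. Both Otub2 KO libraries lay below both WT libraries, 2.72-fold and 2.68-fold under the WT mean. Its log2 fold change was -1.43 (SE 0.357, 95% interval -2.34 to -0.53), with an unadjusted p of 0.00944 and an adjusted p of 0.166 (edgeR). Klk11 (ENSMUSG00000067616), another secreted tryptic member, was at 57.1 and 128 CPM in the Otub2 KO libraries and at 170.1 and 149 CPM in the WT libraries (log2 fold change -0.78, SE 0.436, adjusted p = 0.299). Otub2 KO 4 lay only 1.24-fold under the WT mean, against 2.79-fold for Otub2 KO 3.

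Klk13 was the only member with both Otub2 KO libraries above both WT libraries. Klk13 (ENSMUSG00000054046), described in humans as a kallikrein of oral and oesophageal squamous epithelium, was at 61.9 and 152 CPM in the Otub2 KO libraries and at 53.5 and 45.6 CPM in the WT libraries. Otub2 KO 3 lay 1.25-fold and Otub2 KO 4 lay 3.06-fold above the WT mean (log2 fold change 1.11, SE 0.47, 95% interval -0.09 to 2.30, adjusted p = 0.218). The order depended on the scaling, since with upper-quartile scaling, library size only or median centring 0 members lay above both WT libraries, although the fold change of Klk13 stayed above 0 under every setting run (0.32 to 1.64).

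Klk6, Klk10 and Klk12 were lower in Otub2 KO 3 and not in Otub2 KO 4. Klk6 (ENSMUSG00000050063), a tryptic protease also known as neurosin, was at 1.68 and 17.5 CPM in the Otub2 KO libraries and at 6.79 and 4.1 CPM in the WT libraries, from 24 and 362 counts against 97 and 56. The Otub2 KO libraries lay on opposite sides of both WT libraries, 3.25-fold under and 3.22-fold over the WT mean, and the fitted log2 fold change of 0.82 (SE 1.06, adjusted p = 0.63) stands for neither. Klk10 (ENSMUSG00000030693), first described in human mammary epithelial cells, was at 303 and 885 CPM in the Otub2 KO libraries and at 631 and 800.2 CPM in the WT libraries (log2 fold change -0.27, SE 0.562, adjusted p = 0.77). Klk12 (ENSMUSG00000044430), a tryptic protease, was at 31.6 and 100.2 CPM in the Otub2 KO libraries and at 118 and 83.8 CPM in the WT libraries (log2 fold change -0.61, SE 0.577, adjusted p = 0.511). For Klk10, Otub2 KO 4 lay above both WT libraries, and for Klk12 it lay between them.

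**Figure D1:**
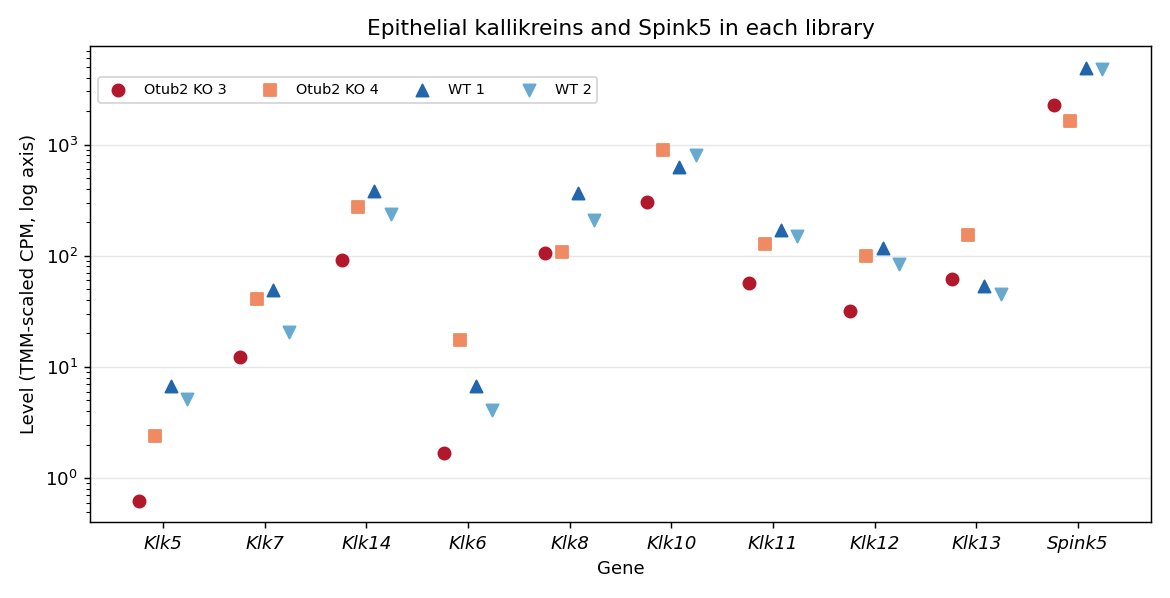
Level of each gene (TMM-scaled CPM, log axis) in the 4 libraries, 1 point per library, with the Otub2 KO libraries left of the WT libraries. Spink5, Klk5, Klk8 and Klk11 have both Otub2 KO points under both WT points, Klk13 has both above, and Klk6 has them on opposite sides (1.68 and 17.5 CPM against 6.79 and 4.1 CPM).

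All 10 members entered the test, and 0 passed it, nor did any other of the 21916 genes tested (0% called in either direction). The unadjusted p was under 0.05 for 3 members, all lower (Klk5, Klk8 and Spink5), where 15.2% of all genes tested were lower and 9.42% higher. Limma-voom also called 0 members. DESeq2 run on all genes with a count called 0 members. Of the 15227 genes it gave an adjusted p, 7.45% were called higher and 0.847% lower. DESeq2 restricted to the genes that edgeR tested called Spink5 (adjusted p = 0.0273) and Klk8 (adjusted p = 0.0468). Of the 15967 genes it then gave an adjusted p, 4.89% were called higher and 1.62% lower.

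By order of the libraries, 4 of 10 members had both Otub2 KO libraries below both WT libraries and 1 had both above. Over all genes tested these shares were 33.1% below and 26.9% above. Among genes with a mean of at least 5 CPM, 12% lay below and 42.7% above, and 3 of the 9 members at that level lay below. Taken alone, Otub2 KO 3 was below both WT libraries in 9 of 10 members and Otub2 KO 4 in 4 of 10, with 3 above and 3 between. Of the 9 members with a mean of at least 5 CPM, 8 lay below in Otub2 KO 3 and 3 in Otub2 KO 4, where 28.4% and 23.4% of genes at that level lay below. In 5 members, Klk6, Klk7, Klk10, Klk12 and Klk14, Otub2 KO 3 was below both WT libraries and Otub2 KO 4 was not, a pattern found in 16.5% of genes at that level. At the same level, 1 member (Spink5) had both Otub2 KO libraries at least 2-fold below both WT libraries and 0 members had both at least 2-fold above, where 1.5% and 3.82% of genes did. The median log2 fold change was -0.68 over the 10 members, 0.09 over all genes tested and 0.41 over genes with a mean of at least 5 CPM.

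With Otub2 KO 4 as the only knockout library, edgeR called 5 members, while 18.8% of genes were called higher and 22% lower. Spink5 (log2 fold change -1.56, adjusted p = 1.06e-07), Klk8 (-1.39, adjusted p = 1.02e-05) and Klk5 (-1.30, adjusted p = 0.00136) were lower there, and Klk6 (1.71, adjusted p = 3.41e-07) and Klk13 (1.64, adjusted p = 5.72e-09) were higher. With Otub2 KO 3 as the only knockout library, edgeR called 9 members lower, every member but Klk13, while 22.4% of genes were called higher and 12.7% lower. The log2 fold changes of the 9 then ran from -1.10 (Spink5, adjusted p = 0.000248) to -3.23 (Klk5, adjusted p = 9.69e-11). Both fits take their spread from the WT pair alone and assume it for the single knockout library, and both use the same WT libraries. Klk5, Klk8 and Spink5 were lower in both, and Klk6 was called in opposite directions.

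Along the cluster, neighbouring genes did not share their difference in Otub2 KO 4. Klk8 starts 107.2 kb from the start of Klk14 and lay 1.37 below the WT mean on the log2 CPM scale in Otub2 KO 4, while Klk9 upstream of it and Klk7 downstream of it lay 0.21 and 0.34 above. Klk6 and Klk5, which start 134.1 and 151.6 kb from Klk14, lay 1.71 above and 1.27 below the WT mean in the same library. In Otub2 KO 3 the genes from Klk12 to Klk6 lay 0.79 to 1.65 below the WT mean, Klk5 lay 9.48-fold below in CPM, and Klk13 lay 0.32 above. Klk9, which is not among the 10 members, was at 13.5 and 27.1 CPM in the Otub2 KO libraries and at 22.7 and 24 CPM in the WT libraries.

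**Figure D2:**
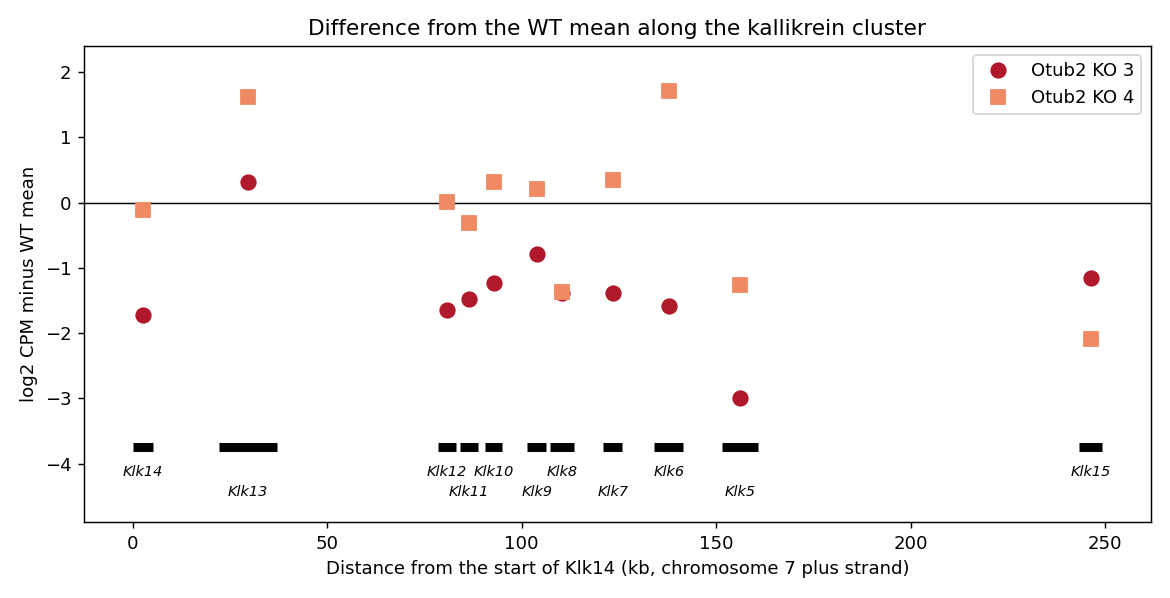
Difference of each Otub2 KO library from the mean of the WT libraries (log2 CPM, prior count 2) for the kallikrein genes tested from Klk14 to Klk15 on chromosome 7, against the distance from the start of Klk14 in kilobases, with black bars for the genes. Otub2 KO 3 lies below 0 at each gene but Klk13 (0.32), and Otub2 KO 4 is highest at Klk6 (1.71) and Klk13 (1.62).

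The make-up of the kallikrein transcripts within a library needs no scaling between libraries. As a share of the summed counts per kilobase of the 9 kallikreins, Klk13 held 5.84% and 5.5% in the Otub2 KO libraries and 1.84% and 1.78% in the WT libraries. Both Otub2 KO libraries thus had about the same Klk13 share, above that of both WT libraries. The levels behind these shares differed. The 9 kallikreins summed to 665 and 1709 CPM (TMM-scaled) in the Otub2 KO libraries and to 1781 and 1554 CPM in the WT libraries. Klk13 itself lay 1.25-fold (Otub2 KO 3) and 3.06-fold (Otub2 KO 4) above the WT mean. Klk5 held 0.102% and 0.148% in the Otub2 KO libraries and 0.4% and 0.345% in the WT libraries, so that its share was lower in both Otub2 KO libraries. Klk11 held 8.43% and 7.26% in the Otub2 KO libraries and 9.13% and 9.11% in the WT libraries, a smaller difference in the same direction. Klk10 held the largest share in each library, with 47.8% and 53.6% in the Otub2 KO libraries and 36.2% and 52.3% in the WT libraries, and the groups overlapped. Klk8 held 15% and 5.83% in the Otub2 KO libraries and 18.8% and 12.3% in the WT libraries, and these overlapped as well. By raw counts Klk13 took 9.31% (exact 95% binomial interval 8.74 to 9.91) and 8.89% (8.6 to 9.19) in the Otub2 KO libraries, against 3.01% (2.8 to 3.22) and 2.94% (2.71 to 3.17) in the WT libraries. There were 0.582 and 1.41 Klk13 counts per Klk8 count in the Otub2 KO libraries and 0.145 and 0.216 in the WT libraries, a ratio chosen after its values were seen. In both Otub2 KO libraries Klk13 lay above and Klk8 below both WT libraries, so this ratio had to separate the groups and adds no result.

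The balance of protease to inhibitor transcripts differed between the Otub2 KO libraries. Summed Klk5, Klk7 and Klk14 counts per kilobase came to 16.5 and 70.9 per 100 of Spink5 in the Otub2 KO libraries and to 32 and 20.1 in the WT libraries. Otub2 KO 3 lay under both WT libraries and Otub2 KO 4 lay over both, so the groups overlapped. The geometric mean over the Otub2 KO libraries was 1.35 times that of the WT libraries, 2.8 times without Otub2 KO 3 and 0.653 times without Otub2 KO 4. Klk14 made up most of the sum of Klk5, Klk7 and Klk14 in every library. Of the total of the 9 kallikreins it held 15.5% and 18% in the Otub2 KO libraries and 23.5% and 16.6% in the WT libraries. Klk7 held at most 2.05% and Klk5 at most 0.4% of that total. Over all 9 kallikreins the sums were 97.6 and 356 per 100 of Spink5 in the Otub2 KO libraries and 123 and 112 in the WT libraries. Transcript ratios do not measure enzyme or inhibitor activity.

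**Figure D3:**
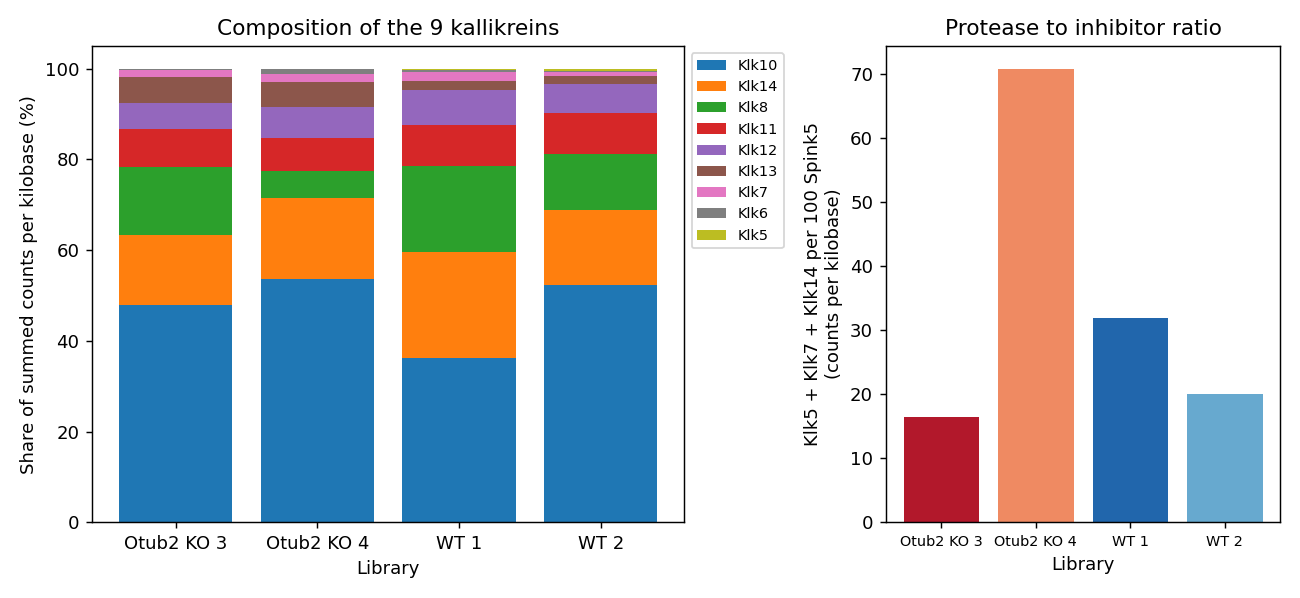
Left, share of each kallikrein in the summed counts per kilobase of the 9 genes in each library (%). Right, Klk5, Klk7 and Klk14 summed per 100 of Spink5 (counts per kilobase), with 16.5 and 70.9 in the Otub2 KO libraries and 32 and 20.1 in the WT libraries; the Klk13 share is larger in both Otub2 KO libraries (5.84% and 5.5% against 1.84% and 1.78%).

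The glandular kallikreins, which lie outside this group of genes, were high in Otub2 KO 3 and near 0 in the other 3 libraries. Klk1, the tissue kallikrein of salivary ducts, had 69620 and 6 counts in the Otub2 KO libraries and 4 and 4 counts in the WT libraries. The 13 Klk1b genes, a group of close paralogs of the mouse submandibular gland, had 50 to 4410 counts each in Otub2 KO 3 and 0 to 12 counts each in the other 3 libraries. Klk1b26 was the most abundant of them, at 308 and 0.145 CPM in the Otub2 KO libraries and at 0.7 and 0.879 CPM in the WT libraries, and Klk1b5 was at 96.3 and 0.0484 CPM against 0.35 and 0.293 CPM. Reads of such close copies may be split between them, so the values of single Klk1b genes are uncertain. Of the 17 other family genes listed, 4 were tested and 0 passed. These gland kallikreins were high in the library in which 9 of the 10 members were below both WT libraries.

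Genes around the kallikreins were taken from lists by abundance. Over all genes tested, 33.1% lay below both WT libraries and 26.9% above. Among genes with a mean of at least 5 CPM, 12% lay below and 42.7% above. These shares are the background for the list counts that follow. Of 18 other inhibitors 11 were tested, and 6 lay below both WT libraries, 2 above, and 0 passed the test, with a median log2 fold change of -0.71. Slpi, a secreted inhibitor of leukocyte proteases, was at 203 and 292 CPM in the Otub2 KO libraries and at 854 and 517 CPM in the WT libraries (log2 fold change -1.47, SE 0.398, adjusted p = 0.166). Both Otub2 KO libraries lay below both WT libraries, as for Spink5. Spint2, a membrane Kunitz inhibitor, was at 316 and 315 CPM in the Otub2 KO libraries and at 265 and 167 CPM in the WT libraries (log2 fold change 0.55, SE 0.33, adjusted p = 0.327). Spint1, its relative, was at 66.2 and 120 CPM in the Otub2 KO libraries and at 109 and 86.8 CPM in the WT libraries. Wfdc12, a small whey acidic protein inhibitor, was at 943 and 15.7 CPM in the Otub2 KO libraries and at 52.6 and 24.5 CPM in the WT libraries, high in Otub2 KO 3 alone. Its place among the most abundant genes of the list rests on that library.

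The listed membrane proteases that can activate serine protease cascades, taken with the plasminogen activators, gave no shared direction. Of 14 tested, 3 lay above both WT libraries, 2 below, and 0 passed the test. Tmprss11d, an airway and oral epithelial protease, was at 60.8 and 347 CPM in the Otub2 KO libraries and at 326 and 346 CPM in the WT libraries. Tmprss11b, a relative, was at 99.4 and 341 CPM against 150.1 and 213 CPM. Both were lowest in Otub2 KO 3. In Otub2 KO 4 Tmprss11b was at its highest, while Tmprss11d was level with WT 2. St14, which encodes matriptase, was at 125 and 201 CPM in the Otub2 KO libraries and at 161 and 126 CPM in the WT libraries. Plau, the urokinase plasminogen activator, was at 97.1 and 142 CPM against 137 and 149 CPM.

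Most genes of kallikrein substrates and receptors lay below the WT libraries or overlapped with them. Of 8 tested, 4 lay below both WT libraries, 1 above, and 0 passed the test. The desmosomal cadherins Dsc1 and Dsg1a were lowest in Otub2 KO 4, in contrast to most kallikreins. Dsc1 was at 254 and 78.9 CPM in the Otub2 KO libraries and at 354 and 841 CPM in the WT libraries (log2 fold change -1.84, SE 0.713, adjusted p = 0.2). Dsg1a was at 161 and 43.4 CPM in the Otub2 KO libraries and at 269.6 and 486 CPM in the WT libraries (log2 fold change -1.89, SE 0.698, adjusted p = 0.192). Dsg1b was at 343 and 184 CPM in the Otub2 KO libraries and at 228 and 593 CPM in the WT libraries, which overlapped. The Dsg1 genes are close paralogs, and reads may be split between them. Cdsn, corneodesmosin, was at 81.5 and 219 CPM in the Otub2 KO libraries and at 223 and 237 CPM in the WT libraries (log2 fold change -0.61, SE 0.502, adjusted p = 0.452), with Otub2 KO 4 just under the WT libraries.

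Among 12 other proteases of cornifying epithelium, 4 lay above both WT libraries, 3 below, and 0 passed the test. Ctsl, a lysosomal cysteine protease, was at 263 and 391 CPM in the Otub2 KO libraries and at 139 and 121 CPM in the WT libraries (log2 fold change 1.33, SE 0.319, adjusted p = 0.166). Blmh, which breaks down filaggrin peptides, was at 136 and 220.4 CPM in the Otub2 KO libraries and at 264 and 233 CPM in the WT libraries (log2 fold change -0.48, SE 0.335, adjusted p = 0.387). Ctsd, an aspartic protease, was at 563 and 714 CPM in the Otub2 KO libraries and at 718 and 389 CPM in the WT libraries. Capn1, a calcium-dependent protease, was at 109 and 146 CPM against 142 and 147 CPM.

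**Figure D4:**
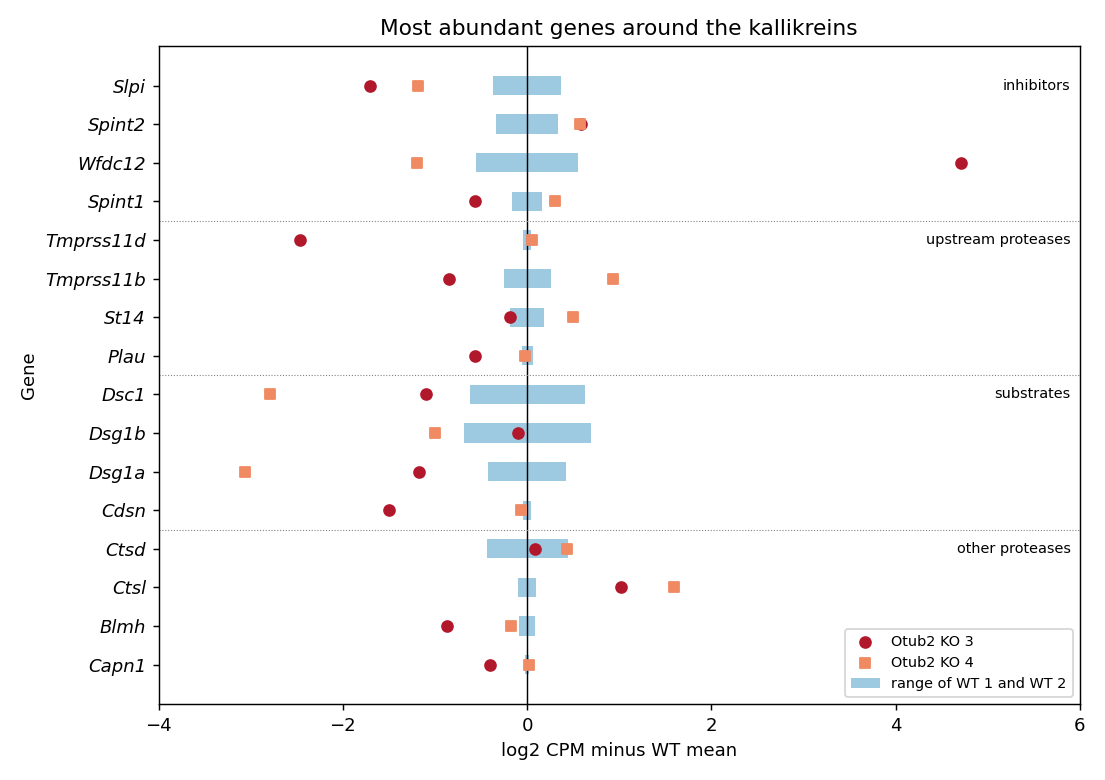
Difference of each Otub2 KO library from the WT mean (log2 CPM, prior count 2) for the 4 most abundant genes of each of 4 lists, with a bar for the range of the WT libraries. Slpi, Dsc1 and Dsg1a lie left of the WT range in both Otub2 KO libraries and Ctsl right of it, while Wfdc12 is far right in Otub2 KO 3 alone.

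Genes of differentiating keratinocytes were mostly lower in both Otub2 KO libraries and basal genes were divided, and 0 genes of either list passed the test. Of 20 genes of differentiating keratinocytes 16 lay below both WT libraries and 2 above, with a median log2 difference from the WT mean of -1.41 in Otub2 KO 3 and -0.90 in Otub2 KO 4. Of 13 basal genes 6 lay above and 3 below, with medians of 0.01 and 1.38. Among all genes with a mean of at least 5 CPM, 42.7% lay above and 12% below. The count of basal genes above was near that share. Over all genes tested 26.9% lay above and 33.1% below. The 3 basal genes below were Krt14, Krt15 and Pitx1. The summed level of the differentiation markers was 22269 and 24202 CPM in the Otub2 KO libraries and 45737 and 43686 CPM in the WT libraries. That of the basal markers was 19345 and 34723 CPM in the Otub2 KO libraries and 33559.8 and 30266 CPM in the WT libraries. By this sum Otub2 KO 3 lay below both WT libraries and Otub2 KO 4 above both. Of 14 fibroblast markers 11 lay above and 0 below, with summed levels of 946 and 672 CPM in the Otub2 KO libraries and 285 and 323 CPM in the WT libraries. The salivary list summed to 478398 and 233 CPM in the Otub2 KO libraries and to 97.9 and 159 CPM in the WT libraries, with Dcpp1 and Dcpp2 at 0 in both Otub2 KO libraries and Smr3a and Pip at 0 in both WT libraries. The muscle list summed to 19324 and 97.1 CPM in the Otub2 KO libraries and to 78.4 and 78.7 CPM in the WT libraries. In bulk samples fewer cells of a type and less RNA per cell cannot be told apart. The part of these differences, and of the gland and muscle transcripts of Otub2 KO 3, in the levels of the kallikreins and Spink5 was not tested.

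The genes most like Spink5 across the 4 libraries were found by the Euclidean distance between log2 CPM profiles, each centred on its own mean, over 11787 other genes with a mean of at least 5 CPM. They were Adgrv1, an adhesion G protein-coupled receptor (distance 0.07), and the keratins Krt6b (0.11) and Krt13 (0.12). Krt13, the keratin of the differentiating layers of oral epithelium, was at 5287 and 3954 CPM in the Otub2 KO libraries and at 11445 and 10405 CPM in the WT libraries (log2 fold change -1.24, SE 0.496, adjusted p = 0.206). Krt6b, a keratin of stratified and regenerating epithelium, was at 7298 and 5771 CPM against 16784 and 15885 CPM. Klk10 was most like Mtap, an enzyme of methionine salvage (distance 0.08), Tnfrsf21, a death receptor (0.09), and the membrane protease Tmprss11g (0.13). Tmprss11g was at 23.8 and 72.7 CPM in the Otub2 KO libraries and at 50.2 and 58.4 CPM in the WT libraries. A distance over 4 libraries is a description, and 25 and 12 genes lay within 0.25 of Spink5 and Klk10.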

How the data were processed

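RNA sequencing counts of 2 Otub2 KO and 2 WT libraries were used. The deposited table holds raw read counts per gene and FPKM, per the file headers. The FPKM values deposited by the authors are proportional to count over length in every column, and the gene lengths used here were read back from them. HISAT2, DESeq and the build GRCh38 are named in the submitters' processing notes, without version or role, although the gene identifiers are mouse. For the counting tool, annotation and strand setting: not given in the sources used here. Of 54446 Ensembl identifiers, 54409 were found in GENCODE mouse release M21 (GRCm38), the source of coordinates. Another 14785 features without an identifier, holding 1.29% and 0.914% of counts in the Otub2 KO libraries and 2.84% and 2.82% in the WT libraries, were left out.

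Counts were tested with edgeR 4.0.16 (quasi-likelihood F-test, TMM, filterByExpr) in R 4.3.3, with Benjamini-Hochberg adjustment over 21916 genes at 0.05. The SE of a fold change is its size over the root of F. Fold changes are Otub2 KO over WT. DESeq2 1.42.0, limma-voom (limma 3.58.1), other scalings and filters, and leaving out each library were alternatives. The fit was tested on simulated data. With 2 libraries against 2 an exact permutation test of a single value cannot go below p = 0.333 (two-sided), so none is given. No batch is labelled.

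The members and lists were chosen with earlier results of these data known. Named genes are the members, Otub2, the 4 most abundant genes of each of 5 lists, and the 3 genes nearest to Spink5 and to the most abundant of the 9 kallikreins. Depth was 11548186 to 22719550 gene counts, and intervals on counts cover counting error only. Listed genes without a row (Tmprss11bnl) are not analysed here.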

Additional observations from a re-analysis of the deposited data

How the results depend on the processing

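No paired analysis was possible because the Otub2 KO and WT libraries share no replicate number. The count of all genes called was 0 in the edgeR test described above, 1264 with DESeq2 on all genes with a count, 1038 with DESeq2 on the genes kept by filterByExpr (an alternative chosen after seeing the data), 1470 with library size only and 9 with no filter on low counts, and ran from 0 to 9456 when a library was left out. The count of members called was 0, 2 with DESeq2 on the genes kept by filterByExpr, and 0 to 9 when a library was left out. Members with both Otub2 KO libraries below both WT libraries numbered 4, and 4 to 9 when a library was left out (7 without WT 2). They numbered 6 with upper-quartile scaling, 5 with the filter at a mean of 5 CPM and 3 with features without an identifier kept. With a library left out the order is met more readily, and the shares of all genes under these settings are not given. Members above numbered 1, 0 with upper-quartile scaling, library size only, median centring and the filter at a mean of 5 CPM, and 1 to 3 when a library was left out. Directions turned for Klk7 (log2 fold change 0.24 without Otub2 KO 3, -1.53 without Otub2 KO 4, 0.37 without WT 1), Klk6 (1.71 and -1.70 without Otub2 KO 3 and 4), Klk10 (0.04 with DESeq2 on all genes with a count, 0.33 and -1.24 without Otub2 KO 3 and 4) and Klk12 (0.02 and -1.68 without Otub2 KO 3 and 4); the cause was not tested. The other 143 of 149 values of the 10 members kept their direction, 15 of them passing the threshold. The adjusted p of Spink5 ran from 1.06e-07 to 0.832 over all settings and that of Klk8 from 4.16e-06 to 0.832. The median log2 fold change of all genes tested was 0.09 with TMM, -0.38 with upper-quartile scaling, -0.35 with library size only and -0.22 with median centring. The 9 counts of Klk5 in Otub2 KO 3 have an exact 95% Poisson interval of 4.12 to 17.1. That library had the most gene counts, but the salivary list held 30.2% of them.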
